A study of Rattus norvegicus with 8 samples.

Results

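The genes described here encode G protein-coupled receptors, subunits of the G proteins they act on, and enzymes that make or break down cyclic nucleotides, in RNA-seq of rat retinal ganglion cells (RGCs). They were chosen by symbol. A gene was taken if its symbol began with the letters of a receptor family (Gpr, Adgr, Adora, P2ry, Htr, Ptger, Lpar, Fzd, Sstr and others), of a G protein subunit (Gna, Gnb, Gng) or of an adenylyl cyclase or phosphodiesterase (Adcy, Pde), with 1 phosphodiesterase left out. This gave 25 of the 1998 Ensembl gene IDs for which a symbol was at hand, among 32623 IDs counted, so members of these families with other IDs were not analysed here. By role, 16 of the 25 encode receptors, 3 encode G protein subunits and 3 encode enzymes of cyclic nucleotides. The remaining 3, Gpr89b, Gpr137b and Gnb1l, carry a symbol of the family but encode other kinds of protein or proteins not known to act as receptors.

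A G protein-coupled receptor crosses the membrane and, when its ligand binds, switches on a heterotrimeric G protein made of alpha, beta and gamma subunits. Alpha subunits of the stimulatory class raise adenylyl cyclase activity and those of the inhibitory class lower it, which sets the level of cyclic AMP, while phosphodiesterases break cyclic AMP and cyclic GMP down again. In RGCs cyclic AMP is known for its effect on survival and axon growth, and it acts in part through the transcription factor CREB.

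The study asked how RGCs change between a stage with strong axon growth, embryonic day 21 (E21), and postnatal day 11 (P11). The cells came from retinas of Sprague Dawley rat embryos and pups with no genetic change or treatment, 4 libraries per stage, each from an independent litter. Retinas were dissociated with papain, in a larger amount at P11, and the cells were purified by immunopanning, in which a plate with an antibody against macrophages took cells away and a plate with an antibody against Thy1 then held the RGCs. Stage, amount of papain and the other steps of each preparation cannot be told apart. Between 13899299 and 20116017 reads were counted on genes per library. Values are given as CPM, counts normalized for library size with the TMM method of edgeR, listed from replicate 1 to replicate 4 of a stage, with means ± SD over 4 libraries. Such values allow a gene to be compared between libraries, and not 1 gene with another, since they are not divided by gene length. Fold changes are on the log2 scale, E21 over P11, so that a negative value means higher at P11. A gene was called when its adjusted p in edgeR's quasi-likelihood test was below 0.01 and its log2 fold change was beyond 1 in either direction. A floor of 3 counts was between 0.152 and 0.219 CPM, and such floors and the counting intervals below cover counting error only, since reads that carry no molecular identifier cannot be taken as separate molecules.

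The labelled cell type was checked against marker genes. Of 3 RGC markers with a symbol, Gap43 was at 1711 ± 44.04 CPM at E21 against 623 ± 30.8 CPM at P11 and was called higher at E21 (log2 fold change 1.46), Uchl1 was not called (log2 fold change 0.21), and Atoh7, a gene of early RGC formation, was at or below 0.951 CPM. Together they were between 3227 and 3382 CPM at E21 and between 1931 and 2051 CPM at P11. The usual pan-RGC markers were not among the IDs with a symbol. The paper reports that Pou4f1 and RBPMS were highly enriched over markers of other retinal cells. Markers of other cells were not equal between the stages. The summed mural cell markers Rgs5, Notch3 and Higd1b were between 3.09 and 5.27 CPM at E21 and between 278 and 554 CPM at P11, and 3 of 3 were called higher at P11. The fibroblast genes Col1a1 and Col3a1 together were between 1.67 and 3.41 CPM at E21 and between 137 and 258 CPM at P11, both called. The summed endothelial markers were between 0.402 and 1.17 CPM at E21 and between 9.48 and 13.3 CPM at P11. Flt1, Flt4 and Erg were at 0 in E21 replicate 1, and Erg also in E21 replicates 2 and 4. Of the 5 markers only Flt1 and Flt4 had enough counts for the test, and both were called higher at P11. The photoreceptor markers were between 6.84 and 8.29 CPM at E21 and between 25.7 and 41.3 CPM at P11, with 3 of 5 called. The microglial markers Ptprc and Aif1 together stayed at or below 0.952 CPM in every library. Those of astrocytes and Müller cells were between 0.669 and 0.861 CPM at E21 and between 1.15 and 2.62 CPM at P11, and S100b was called higher at P11 (log2 fold change -5.45). Markers of bipolar cells went both ways, with Prkca called higher at P11 (log2 fold change -1.19) and Grm6 at 0.82, not called. So did those of amacrine and horizontal cells, with Gad1 called higher at P11 (-4.03), Prox1 called higher at E21 (1.18) and Pax6 not called (0.50). Markers of dividing progenitors were between 8.502 and 10.02 CPM at E21 and between 13.4 and 24.2 CPM at P11. In such bulk samples, fewer cells of a type and less RNA per cell cannot be told apart.

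Promoter windows from RefSeq (rat build GRCr8, 250 bases before to 50 after each gene's start) were found for 20 of the 25 genes, with 21 windows in all. There was none for Adcy3, Adora2a, Gnaz, Gnb1l and Pde9a. The windows were searched for the core of the cyclic AMP response element, the site bound by CREB, as TGACG on the strand of the gene or CGTCA, its reverse complement. The core was in 4 of 21 windows (19.0%), against 21.2% of all 33469 windows of the same length in the table. The whole palindromic element, TGACGTCA, which holds both cores overlapping, was in 1 window, that of Sstr2, against 1.83% of all windows. The 4 windows with a core are shown first, that of Sstr2 in full and the others as the core with 40 bases on each side, each 5′ to 3′ on the strand of its gene and with the core in capitals. The whole Sstr2 window lies at chr10:99163103-99163402 on the plus strand, and its element begins 73 bases before the start. The core begins 33 bases before the start in Gnb2, 22 in Gpr143 and 36 in Gpr89b.
Sstr2: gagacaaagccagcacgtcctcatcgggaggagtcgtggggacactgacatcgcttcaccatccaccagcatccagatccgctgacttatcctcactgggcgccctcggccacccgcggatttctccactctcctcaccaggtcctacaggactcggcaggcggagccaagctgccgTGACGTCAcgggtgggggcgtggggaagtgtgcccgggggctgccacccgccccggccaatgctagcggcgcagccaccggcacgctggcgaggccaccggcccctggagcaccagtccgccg
Gnb2: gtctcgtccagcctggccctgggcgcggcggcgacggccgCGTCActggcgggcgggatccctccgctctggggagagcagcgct
Gpr143: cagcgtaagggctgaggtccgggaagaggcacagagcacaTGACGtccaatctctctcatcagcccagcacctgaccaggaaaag
Gpr89b: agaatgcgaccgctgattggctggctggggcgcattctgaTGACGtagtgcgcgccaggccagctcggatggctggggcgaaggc
Of the 4 genes, only Gpr143 was called between the stages, as higher at P11. A match to these letters is a description of the window and not evidence of binding.

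The windows of Adora1 and Gpr161 are shown because these genes changed most in each direction among the members with a window. Neither holds the core. The Adora1 window (chr13:48246782-48247081, minus strand) has 5 CpG dinucleotides and a GC content of 59.0%. The first of 2 windows of Gpr161 (chr13:80111021-80111320, plus strand) has 42 CpG dinucleotides and a GC content of 75.3%. The median was 15 CpG dinucleotides over the 21 windows of the members and 7 over all windows.
Adora1: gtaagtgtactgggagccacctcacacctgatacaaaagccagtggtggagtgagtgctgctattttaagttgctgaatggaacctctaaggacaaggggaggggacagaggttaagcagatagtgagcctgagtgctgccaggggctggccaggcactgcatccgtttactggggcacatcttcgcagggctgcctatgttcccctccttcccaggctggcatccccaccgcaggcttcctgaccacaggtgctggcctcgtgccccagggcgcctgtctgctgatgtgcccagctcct
Gpr161: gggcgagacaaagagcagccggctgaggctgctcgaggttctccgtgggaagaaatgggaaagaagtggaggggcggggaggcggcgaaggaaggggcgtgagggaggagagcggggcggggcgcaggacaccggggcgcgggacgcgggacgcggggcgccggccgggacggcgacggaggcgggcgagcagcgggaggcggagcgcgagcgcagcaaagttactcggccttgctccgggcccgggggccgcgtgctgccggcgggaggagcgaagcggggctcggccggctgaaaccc

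Receptor genes were called in both directions between E21 and P11. Of the 25 genes, 24 had enough counts for the test and 13 of these were called, 6 higher at E21 and 7 higher at P11. Over all 14043 genes tested, 24.7% were called, 8.16% as higher at E21 and 16.5% as higher at P11, and among tested genes paired with a symbol 23.8% were called. Receptors made up 12 of the 13 called genes, out of 15 receptors tested, with 6 in each direction. None of 3 G protein subunit genes and 1 of 3 enzyme genes was called. An adjusted p below 0.01 whatever the fold change was reached by 19 of the 24 genes, 11 higher at E21 and 8 higher at P11, against 68.4% of all genes tested. The stages did not overlap for 19 of the 24, against 71.3% of all genes tested. Log2 fold changes ranged from -6.33 to 1.97, with a median of 0.09, against 0.0042 over all genes tested. The median size of the change, without its sign, was 1.08 on the log2 scale, against 0.49 over all genes tested. These counts and medians depend on the filter, which a gene could pass on its counts at either stage alone. Adora2a, Adora2b and Gpr143, all called, had at most 12 counts in any E21 library. P2ry4, also called, had at most 8 in any P11 library. When each library had to reach 10 counts, these genes, Htr5b and Sstr2, which was not called, dropped out. Of 18 members then tested 8 were called, against 2430 of 12532 genes.

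**Figure D1:**
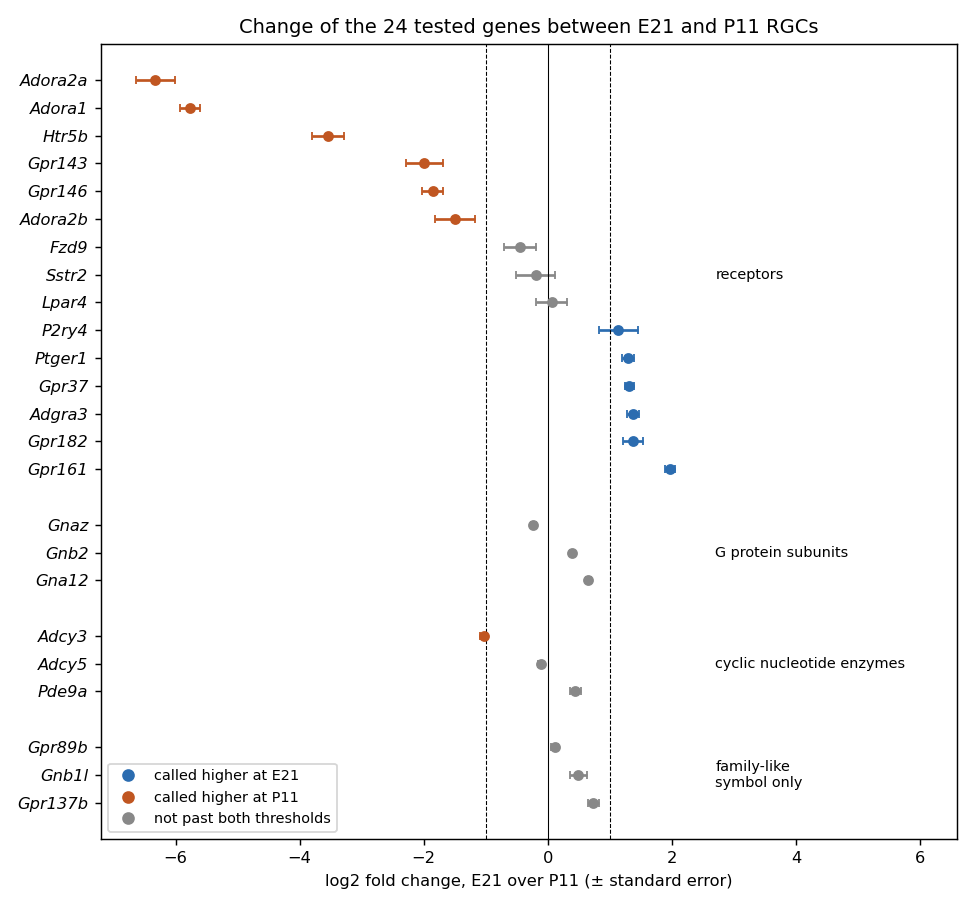
Log2 fold change, E21 over P11, of the 24 tested genes by role, with the standard error as bars and dashed lines at the fold threshold of 1 in each direction; colour marks the stage in which a gene was called higher. Adora2a (-6.33) and Adora1 (-5.77) lie farthest from 0, the 6 receptors called higher at E21 lie between 1.13 and 1.97, and the G protein subunits lie between -0.23 and 0.65.

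The 3 adenosine receptor genes among the members were all higher at P11, and Adora1 and Adora2a had the largest changes of the 24 members tested. Adenosine is released or formed from ATP around active cells, and its receptors act on adenylyl cyclase in opposite ways. Adora1 (ENSRNOG00000003442) encodes a receptor that lowers cyclic AMP through inhibitory G proteins. It was at 6.23, 5.73, 6.87 and 4.46 CPM in the E21 libraries and at 319.9, 393, 290.3 and 281 CPM in the P11 libraries. Every P11 library lay far above every E21 library. The means were 5.82 ± 1.02 CPM at E21 against 321 ± 50.8 CPM at P11, a 54.4-fold difference in the fit (edgeR log2 fold change -5.77 ± 0.16, SE, adjusted p = 3.45e-09).

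Adora2a (ENSRNOG00000001302) encodes a receptor that raises cyclic AMP through stimulatory G proteins. It had 3, 1, 2 and 1 counts in the E21 libraries, all at or below the floor, and 112, 155, 114 and 214 counts in the P11 libraries, which correspond to 7.53, 9.17, 7.24 and 11.7 CPM. The stages did not overlap, and replicate 4 was the highest of the P11 libraries. From the summed counts, 595 at P11 and 7 at E21, the ratio of P11 to E21 was 87.0, with an exact 95% interval of 42.0 to 217. The edgeR fit gave a log2 fold change of -6.33 ± 0.31 (SE), with an adjusted p of 1.003e-11.

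Adora2b (ENSRNOG00000002922), whose product also raises cyclic AMP and needs more adenosine to do so, was at 0.469, 0.557, 0.367 and 0.366 CPM at E21 and 1.28, 1.48, 0.698 and 1.58 CPM at P11. The stages did not overlap, although P11 replicate 3 lay close to the highest E21 library. This was a change of -1.50 ± 0.33 (SE) on the log2 scale (edgeR, adjusted p = 5.06e-04), and it was no longer called by glmTreat, the edgeR test of whether a change exceeds the fold threshold (adjusted p = 0.108).

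Both serotonin receptor genes among the members had more counts at P11. Htr5b (ENSRNOG00000002549) encodes a serotonin receptor that rodents have and for which humans carry only a pseudogene. It was at 0.335, 1.11, 1.78 and 0.731 CPM at E21 and 13.4, 13.1, 10.9 and 11.6 CPM at P11. The E21 libraries varied widely among themselves and all lay far below the P11 libraries. In the edgeR fit the difference was -3.54 ± 0.26 (SE) on the log2 scale, at an adjusted p of 2.98e-08.

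Htr1f (ENSRNOG00000000716) encodes a serotonin receptor that acts through inhibitory G proteins, and it was the 1 gene below the expression filter. It had 2, 3, 2 and 0 counts in the E21 libraries and 20, 24, 9 and 27 in the P11 libraries. All E21 libraries were at or below the floor and all P11 libraries were above it. The ratio of P11 to E21 was 11.7 from the summed counts, with an exact 95% interval of 5.42 to 30.0. A two-sided exact permutation test gave p = 0.0286, the smallest that 4 libraries against 4 allow. Of the alternative fits described below, 7 held Htr1f, and each called it higher at P11 (log2 fold change from -3.74 to -3.14).

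Gpr143 and Gpr146 were also called higher at P11. Gpr143 (ENSRNOG00000003543), known for its loss in ocular albinism and its place in the melanosomes of pigment cells, was at 0.201, 0.608, 0.367 and 0.512 CPM at E21 and 1.68, 1.66, 1.52 and 2.02 CPM at P11. No P11 library fell among those of E21, and the E21 libraries spread about their mean by a large share of it. On the log2 scale the stages differed by -1.99 ± 0.30 (SE, adjusted p = 1.17e-05, edgeR). Gpr146 (ENSRNOG00000001288), an orphan receptor, was at 1.87, 1.32, 1.42 and 1.39 CPM at E21 and 5.98, 5.62, 5.08 and 5.02 CPM at P11. The libraries of each stage lay close together, and the stages were well apart. The edgeR fit gave a log2 fold change of -1.86 ± 0.17 (SE), with an adjusted p of 4.03e-08.

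Since the mural and fibroblast markers were higher at P11 too, the P11 libraries were compared among themselves, a step added after the values had been seen. Ordered by the summed mural markers, the P11 libraries were replicate 3 (278 CPM), replicate 1 (373 CPM), replicate 2 (462 CPM) and replicate 4 (554 CPM). Among the 7 members called higher at P11, Adora2a and Adora2b rose in this same order, and so did Htr1f, the member below the filter. Adora1, Htr5b, Gpr143, Gpr146 and Adcy3 had another order, and Adora1, Gpr146 and Adcy3 were lowest in replicate 4, where the mural markers were highest. Gpr143, however, was lowest in replicate 3 and highest in replicate 4, as the mural markers were. Only its replicates 1 and 2 changed places, at 97.7% and 96.4% of its P11 mean. The orders of Adora2b, Htr1f and Gpr143 rest on at most 37 counts per library, so small steps in them are within counting error. The same holds for Gpr146, with at most 95 counts. Replicate 4 lay little below replicate 3 for Gpr146 (92.5% and 93.6% of the P11 mean), Adcy3 (96.0% and 98.4%) and Adora1 (87.4% and 90.5%). The order of the mural markers was found in 5.53% of all genes tested and in 12.7% of the genes called higher at P11. The part that RNA of mural cells or fibroblasts had in the higher values at P11 was not tested.

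**Figure D2:**
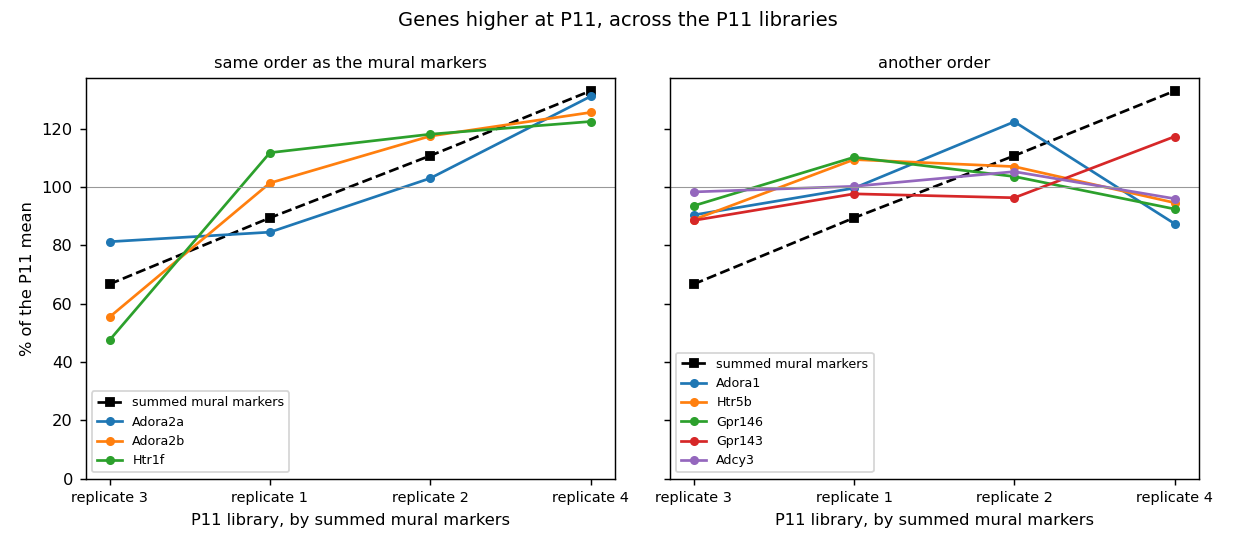
Values of the genes higher at P11 in the 4 P11 libraries, as a percentage of each gene's P11 mean (vertical axis), with the libraries placed by their summed mural markers (dashed black line, 66.7% to 133% of the mean). Adora2a, Adora2b and Htr1f (left) follow the order of the mural markers at every step. Adora1, Htr5b, Gpr146, Gpr143 and Adcy3 (right) follow another order, although Gpr143 is also lowest in replicate 3 and highest in replicate 4.

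Of the 6 receptor genes called higher at E21, Gpr161 had the largest change and P2ry4 the smallest. Gpr161 (ENSRNOG00000003073) encodes an orphan receptor of the primary cilium that raises cyclic AMP and restrains Hedgehog signalling. It was at 61.8, 58.9, 64.01 and 61.4 CPM at E21 and 12.4, 15.3, 16.8 and 17.8 CPM at P11. The stages were far apart and the E21 libraries lay within a narrow range. This was a change of 1.97 ± 0.08 (SE) on the log2 scale (edgeR, adjusted p = 2.12e-12), or 3.93-fold.

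Adgra3 (ENSRNOG00000004279), an adhesion receptor, was at 34.7, 35.2, 34.4 and 33.6 CPM at E21 and 13.8, 10.2, 13.5 and 15.8 CPM at P11. The E21 libraries hardly differed, and all lay above the P11 libraries. In the edgeR fit the difference was 1.37 ± 0.10 (SE) on the log2 scale, at an adjusted p of 1.73e-09. Ptger1 (ENSRNOG00000004094), a prostaglandin receptor that raises calcium in the cell, was at 28.7, 25.7, 22.04 and 23.2 CPM at E21 and 9.27, 9.71, 11.5 and 10.3 CPM at P11. The stages again did not overlap. On the log2 scale the stages differed by 1.29 ± 0.10 (SE, adjusted p = 2.01e-09, edgeR).

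Gpr37 (ENSRNOG00000002524), a receptor known from oligodendrocytes and as a substrate of parkin, was at 153, 162, 175 and 161 CPM at E21 and 60.6, 58.4, 67.3 and 74.9 CPM at P11. The E21 libraries were all above those of P11, with a log2 fold change of 1.32 ± 0.07 (SE, adjusted p = 5.19e-10 with edgeR). Mog, a myelin gene of oligodendrocytes, was likewise called higher at E21, with 23.1 ± 1.90 CPM at E21 against 10.4 ± 0.400 CPM at P11 (log2 fold change 1.14, adjusted p = 1.10e-09, edgeR). The part of oligodendrocyte RNA in the difference of Gpr37 was not tested.

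Gpr182 (ENSRNOG00000004311), a receptor of endothelial cells that binds chemokines, was at 5.15, 5.42, 4.88 and 6.29 CPM at E21 and 2.02, 2.19, 2.35 and 1.80 CPM at P11. It was the E21 libraries that were higher, and the stages did not overlap. The endothelial markers Flt1 and Flt4 were called higher at P11, and the part of endothelial RNA in the values of Gpr182 was not tested. The edgeR fit gave a log2 fold change of 1.38 ± 0.16 (SE), with an adjusted p of 7.35e-07, a call lost with glmTreat (adjusted p = 0.0236).

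P2ry4 (ENSRNOG00000002953), a receptor for the nucleotide UTP, had few counts, 12, 16, 19 and 10 at E21 and 5, 6, 8 and 6 at P11. These correspond to 0.803, 0.811, 0.997 and 0.731 CPM at E21 and 0.336, 0.355, 0.508 and 0.327 CPM at P11. The stages did not overlap, with P11 replicate 3 the nearest to the E21 libraries. This was a change of 1.13 ± 0.31 (SE) on the log2 scale (edgeR, adjusted p = 3.66e-03). The call was lost in 7 of 16 alternatives, including the fits without E21 replicate 3 and without P11 replicate 1, 2 or 4, while the log2 fold change stayed between 1.03 and 1.28.

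**Figure D3:**
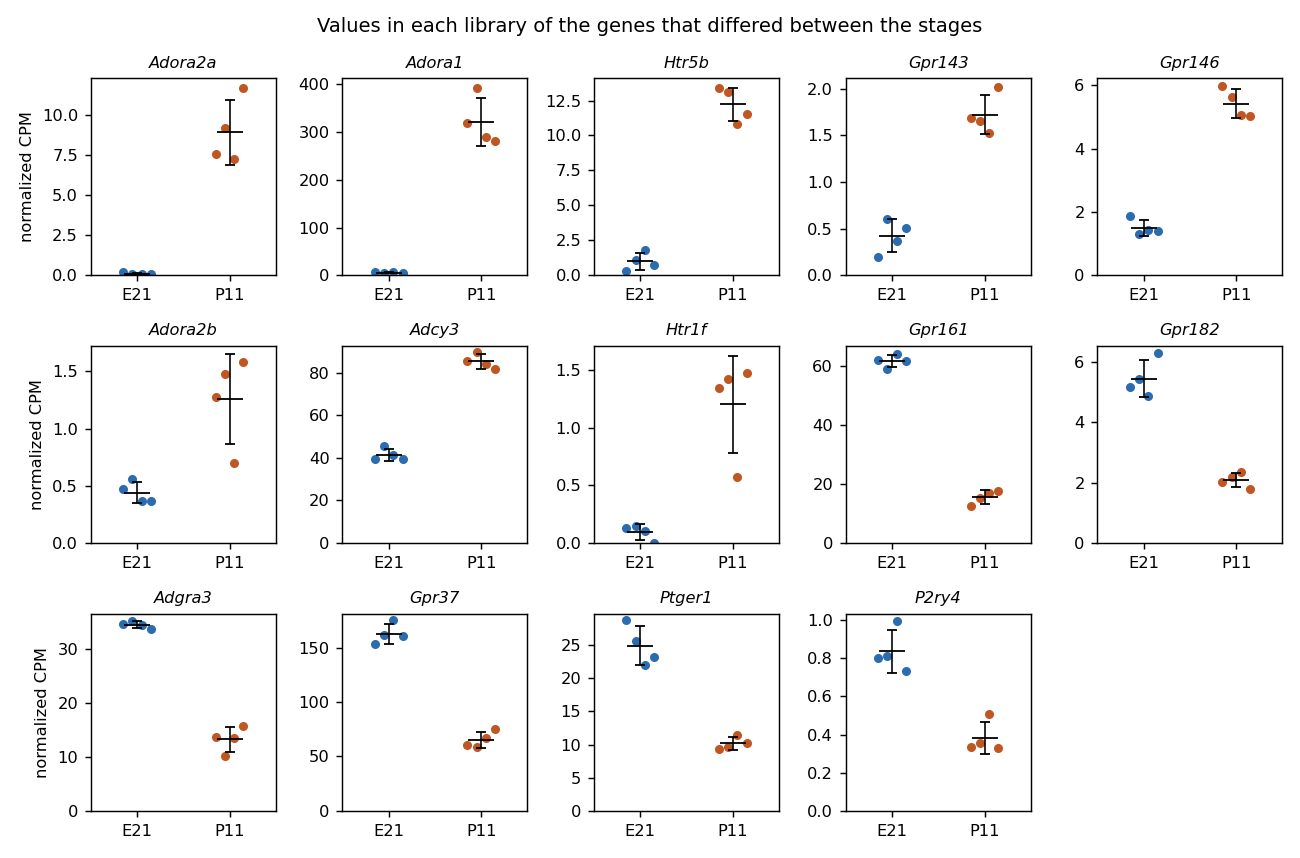
Normalized CPM (vertical axis, from 0 and on its own scale in each panel) of the 13 called genes and Htr1f in each of the 4 E21 and 4 P11 libraries, with the mean as a dash and the SD as a bar. In every panel the points of the stages do not overlap, from Adora1 with means of 5.82 CPM at E21 and 321 CPM at P11 to Gpr161 with 61.5 CPM and 15.6 CPM.

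The other 3 receptor genes tested had adjusted p-values above the threshold. Fzd9 (ENSRNOG00000001452), a Frizzled receptor for Wnt proteins, was at 1.33 ± 0.365 CPM at E21 against 1.80 ± 0.510 CPM at P11 (log2 fold change -0.44, adjusted p = 0.13, edgeR). Lpar4 (ENSRNOG00000002428), a receptor for lysophosphatidic acid, was at 1.44 ± 0.255 CPM and 1.35 ± 0.373 CPM (log2 fold change 0.06, adjusted p = 0.832, edgeR). Sstr2 (ENSRNOG00000002793), a somatostatin receptor that acts through inhibitory G proteins and whose promoter window holds the whole cyclic AMP response element, was at 0.792 ± 0.325 CPM and 0.881 ± 0.0794 CPM (log2 fold change -0.20, adjusted p = 0.576, edgeR). For each of these genes the libraries of the stages overlapped, and the genes had at most 43 counts in any library. The standard errors were between 0.25 and 0.31 on the log2 scale, and changes of the size seen here were not detectable at this depth.

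The 3 genes of G protein subunits were expressed at both stages and differed by less than the fold threshold, each with an adjusted p below 0.01. Gna12 (ENSRNOG00000001235), an alpha subunit that acts on the small GTPase RhoA, was at 254, 263, 245 and 239 CPM at E21 and 158, 157, 163 and 158 CPM at P11. The E21 libraries all lay above the P11 libraries. In the edgeR fit the difference was 0.65 ± 0.04 (SE) on the log2 scale, at an adjusted p of 1.82e-10. Gnb2 (ENSRNOG00000001409), a beta subunit, was at 317, 313, 312 and 311 CPM at E21 and 229.6, 251, 239 and 236 CPM at P11. It too was higher in every E21 library, with a log2 fold change of 0.39 ± 0.04 (SE, adjusted p = 7.48e-08 with edgeR). Gnaz (ENSRNOG00000001313), an alpha subunit of the inhibitory class, was at 203, 210.0, 201 and 200.2 CPM at E21 and 241, 245, 250.2 and 220.0 CPM at P11. It was higher in every P11 library, by a log2 fold change of -0.23 ± 0.04 (SE, adjusted p = 1.30e-04 with edgeR).

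Of the enzyme genes, Adcy3 was called and Adcy5 and Pde9a were not. Adcy3 (ENSRNOG00000003999), an adenylyl cyclase found in the primary cilia of neurons, was at 39.4, 45.6, 41.3 and 39.6 CPM at E21 and 85.5, 89.8, 83.8 and 81.9 CPM at P11. The P11 libraries all lay above those of E21, and neither stage spread widely. On the log2 scale the stages differed by -1.04 ± 0.05 (SE, adjusted p = 2.47e-11, edgeR), close to the fold threshold, and with glmTreat it was not called (adjusted p = 0.455). Adcy5 (ENSRNOG00000002229), a cyclase that inhibitory G proteins and calcium hold back, was at 159, 154, 154 and 148 CPM at E21 and 171, 172, 172 and 153 CPM at P11. The stages overlapped, since P11 replicate 4 lay within the range of the E21 libraries. The edgeR fit gave a log2 fold change of -0.12 ± 0.05 (SE), with an adjusted p of 0.0276. Pde9a (ENSRNOG00000001174), a phosphodiesterase specific for cyclic GMP, was at 20.6, 24.2, 22.1 and 24.2 CPM at E21 and 14.7, 16.5, 15.7 and 19.7 CPM at P11. The stages did not overlap, and the nearest libraries were less than 1 CPM apart. The log2 fold change of 0.44 ± 0.09 (SE, adjusted p = 2.57e-04 with edgeR) was under the fold threshold.

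The 3 genes that only share a symbol with the family were not called. Gpr137b (ENSRNOG00000002480), a lysosomal membrane protein, was at 16.2 ± 1.12 CPM at E21 against 9.76 ± 0.373 CPM at P11 (log2 fold change 0.73, adjusted p = 6.13e-07, edgeR). Gnb1l (ENSRNOG00000001891), a protein with WD repeats like those of G protein beta subunits, was at 10.02 ± 1.98 CPM and 7.12 ± 0.781 CPM (log2 fold change 0.49, adjusted p = 3.67e-03, edgeR). Gpr89b (ENSRNOG00000000095), a Golgi pH regulator, was at 42.1 ± 2.27 CPM and 38.9 ± 1.69 CPM (log2 fold change 0.11, adjusted p = 0.0883, edgeR). The stages did not overlap for Gpr137b and Gnb1l and overlapped for Gpr89b.

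Other genes of the pathway with a symbol were grouped as further receptors, regulators of G proteins, effectors of cyclic nucleotides or of G proteins, and ligands with the genes that supply or remove them. Of 53 such genes 41 were tested and 18 were called, 3 higher at E21 and 15 higher at P11, read against the 24.7% of all genes called, or 8.16% and 16.5% by direction. Their median log2 fold change was -0.69. Among the 12 further receptors tested, 2 were called higher at E21 and 4 higher at P11. Cxcr4, the chemokine receptor for Cxcl12, was at 36.7 ± 4.99 CPM at E21 against 1.58 ± 0.878 CPM at P11 (log2 fold change 4.48). Tshr, the thyrotropin receptor, was at 17.6 ± 1.20 CPM and 5.75 ± 1.005 CPM (log2 fold change 1.61). In the other direction, the estrogen-binding receptor Gper1 was at 0.203 ± 0.0440 CPM at E21 against 6.81 ± 2.28 CPM at P11 (log2 fold change -4.99). The chemerin receptor Cmklr1, with counts in only 1 E21 library, was at 2.35, 2.84, 1.59 and 3.76 CPM at P11, in the order of the mural markers. The vasopressin receptor Avpr1a (log2 fold change -2.73) and the orphan receptor Gprc5c (log2 fold change -1.24) were the other receptors of this list called higher at P11. Gprc5c, and Cxcr4 although it was higher at E21, also had the order of the mural markers among the P11 libraries.

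Of the regulators 4 of 10 tested were called, and of the effectors 2 of 9 (22.2%), each of them higher at P11. Over all genes tested 24.7% were called, 16.5% as higher at P11, so the share of the effectors was near that of all genes. Rgs5, which speeds the switching off of inhibitory G proteins and is also the mural marker named above, was at 1.47 ± 0.774 CPM at E21 against 232 ± 69.8 CPM at P11 (log2 fold change -7.38). Rgs8, of the same family, was at 64.1 ± 10.3 CPM and 172 ± 7.73 CPM (log2 fold change -1.42). Pdc, phosducin, which binds beta and gamma subunits in photoreceptors, was at 0.254 ± 0.105 CPM and 6.72 ± 0.756 CPM (log2 fold change -4.70), and it is 1 of the 3 photoreceptor markers called higher at P11. The small GTPase gene Rasd1 had a log2 fold change of -1.68. Of the effectors, Kcnj6, a potassium channel opened by beta and gamma subunits, was at 0.870, 1.06, 0.892 and 0.585 CPM at E21 and 27.3, 28.5, 24.5 and 21.4 CPM at P11. Every P11 library lay far above every E21 library (edgeR log2 fold change -4.85 ± 0.15, adjusted p = 4.33e-14). Pkib, an inhibitor of protein kinase A, had a log2 fold change of -1.35.

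Among 10 tested ligand genes and genes of ligand supply, 1 was called higher at E21 and 5 higher at P11. Over all genes tested the shares were 8.16% and 16.5%. Sst, the precursor of somatostatin and thus of the ligand of Sstr2, was at 344 ± 55.4 CPM at E21 against 39.5 ± 3.99 CPM at P11 (log2 fold change 3.12, adjusted p = 1.49e-07, edgeR), while Sstr2 itself was not called. Psap, which encodes prosaposin, a proposed ligand of Gpr37, was at 392 ± 23.3 CPM and 1058 ± 58.4 CPM (log2 fold change -1.43, adjusted p = 1.75e-13, edgeR), the direction opposite to that of Gpr37. Ptgs2, the cyclooxygenase that feeds the synthesis of the ligand of Ptger1, was at 0.247 ± 0.0812 CPM and 1.31 ± 0.391 CPM (log2 fold change -2.44, adjusted p = 1.09e-05, edgeR), also opposite to its receptor gene and in the order of the mural markers among the P11 libraries. Wnt9b, of the Wnt ligands of Frizzled receptors, had a log2 fold change of -2.01, and the precursor of neurotensin, Nts, one of -1.24. Tac3, the precursor of neurokinin B, had 0, 2, 1 and 1 counts at E21 and 19, 17, 14 and 23 at P11, a ratio of 18.7 with an exact 95% interval of 6.99 to 70.4.

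**Figure D4:**
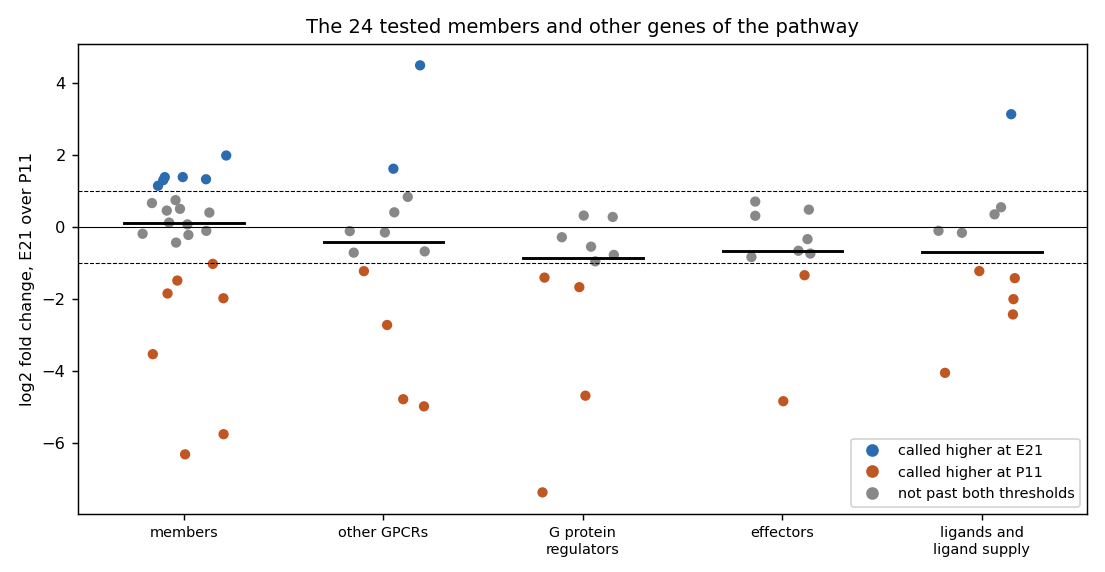
Log2 fold change, E21 over P11 (vertical axis), of the 24 tested members and of the tested genes of 4 further lists of the pathway, 1 point per gene, with a black line at each median and dashed lines at the fold threshold. The median is 0.09 for the members and -0.43 for the other receptors, -0.88 for the regulators, -0.67 for the effectors and -0.70 for the ligand genes.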

How the data were processed

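RNA from immunopanned RGCs was sequenced from 4 independent litters per stage. The authors depleted ribosomal RNA, prepared libraries with a SMARTer kit, used Cutadapt 1.16 and PRINSEQ for trimming and quality control and STAR 2.5.3a for alignment to Rnor_6.0, and counted reads per Ensembl gene with HTSeq 0.6.1 (versions from the submitters' processing notes). They deposited whole-number counts for each library, without normalization or pooling. The annotation release and strand setting are not given in the sources used here, so overlapping genes may share reads. HTSeq set aside reads aligned to several places, so that near-identical copies are uncertain. Symbols came from the part at hand of the study's supplementary gene table, whose comparison columns were not used.

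Counts were filtered with filterByExpr, which left 14043 of 32623 genes, scaled by TMM and tested with edgeR 4.0.16 (glmQLFit with robust estimation, R 4.3.3), with Benjamini-Hochberg adjustment over all genes tested. Standard errors were obtained as |log2 fold change| over the square root of F. Intervals on count ratios are exact (scipy 1.17.1). No same-stage pair of libraries matched within sampling noise (chi-square per degree of freedom 2.86 to 8.12), and the first principal component held 90.9% of the variance and separated the stages. The members, lists and tests were chosen with earlier results of these data known. Every member is named, with values in each library for those called, the adenosine receptors, the cyclases, Pde9a and the G protein subunits; of the lists, genes past both thresholds are named. Alternatives were DESeq2 1.42.0, other scalings and filters, glmTreat, a replicate-number block, leaving out each library, and 0.05 for the adjusted p. The tests were checked on simulated data. One marker gene is not reported here.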

Additional observations from a re-analysis of the deposited data

Results flagged for a closer look

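Of 50 groups of 4 libraries examined, 1 for each member and stage, 3 had a library far from the other three by Dixon's criterion, where chance alone marks about 1 group in 20. Adcy5 was at 153 CPM in P11 replicate 4, against 171 to 172 CPM in the other P11 libraries. Htr1f was at 0.571 CPM in P11 replicate 3, against 1.34 to 1.47 CPM, and P2ry4 at 0.508 CPM in the same library, against 0.327 to 0.355 CPM. P11 replicate 3 was also the P11 library with the lowest summed mural markers, 278 CPM.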

How the results depend on the processing

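Of the 24 members tested, 18 kept their direction and were either called or not called throughout the alternatives that held them, among them 9 of the 13 called. Leaving aside glmTreat, which tests against the fold threshold, the adjusted p alone crossed 0.01 in some of these for Adcy5 and Gnb1l. With glmTreat it was above 0.01 for Gnb1l and also for Gna12, Gnaz, Gnb2, Gpr137b and Pde9a. P2ry4 lost its call in 7 of 16 alternatives, and Adcy3, Adora2b and Gpr182 lost their call with glmTreat alone. The number of members called was 13 with DESeq2 (5 higher at E21, 8 higher at P11) and 13 with every scaling, 9 with glmTreat and between 12 and 14 with each library left out (5 to 6 higher at E21, 7 to 8 higher at P11), while the count over all genes lay between 3446 and 3600 and that of the pathway lists between 18 and 19. A filter of 10 or more counts per library called 8 members, 3 of them higher at P11, and 11 genes of the lists, because it left 18 members and 33 list genes to test. Over all genes, 2317 were called with glmTreat and 4205 without a filter, and the other scalings moved the median by at most 0.05 (log2). With 1 library left out, the log2 fold change of Lpar4 ranged from -0.082 (without P11 replicate 3) to 0.23, and was -0.01 without E21 replicate 1, and that of Sstr2 ranged from -0.46 to 0.0059 (without E21 replicate 2). None of these was called, and the cause was not tested. Same-numbered libraries did not deviate together (correlations -0.03 to 0.08, with 2 of 4 E21 libraries closest to their own number). With the replicate number as a block, 13 members and 3463 genes were called. Htr1f entered 7 of the alternatives, and its calls are part of the counts above. With DESeq2, Htr1f was called higher at P11 and P2ry4 was not called. Few counts limit Htr1f, P2ry4, Sstr2 and Lpar4.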
